A study of Sus scrofa with 6 samples.

Results

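The interleukin-1 genes described here are the agonists IL1A, IL1B and IL18 and the decoy receptor IL1R2, measured in 2 populations of porcine blood monocytes. They were chosen by name, as the probe sets whose symbol in the array's annotation was one of 5 listed genes. This gave 5 probe sets of 4 genes, out of 47722 probe sets tested: 1 each for IL1A, IL1B and IL1R2, and 2 for IL18. The listed antagonist, IL1RN, was not analysed here, so the agonists are set against the decoy receptor alone.

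The donors were 3 piglets of a Large White Landrace F1 cross, aged 8 weeks and sedated with ketamine before they were killed, and their blood mononuclear cells were isolated. The cells were frozen, thawed, stained on ice for CD14 and CD163 and sorted by flow cytometry. One sorted population was CD14low-CD163high (called CD163high) and the other CD14high-CD163low (called CD163low). The 2 populations of each pig went to 1 array each, which gave 6 arrays, 3 per population. No stimulus is named in the labels for either population. The labels name no further antigen in the sort and give no purity after it. The comparison addresses which transcripts differ between the 2 populations.

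IL-1α (IL1A) and IL-1β (IL1B) signal through the receptor IL1R1 and its co-receptor IL1RAP, which recruit MYD88 and IRAK kinases and activate NF-κB. IL1R2 binds the same ligands but lacks the signalling domain, so it acts as a decoy, at the cell surface or after shedding. IL-18 (IL18) uses its own receptor pair and is known for inducing interferon-γ in T cells and NK cells. IL-1β and IL-18 are made as precursors that inflammasome caspases cleave, and monocytes are a main source of IL-1β in blood.

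All values are log2 probe-set signals, and differences are CD163high minus CD163low on that scale. They are given ± SE of the limma fit, which has no block for the pig. Signals of different probe sets cannot be ranked against each other. An array's background level is the mean log2 signal of its 69 background control probe sets. For pigs 1, 2 and 3 this level was 2.82, 2.97 and 3.67 on the CD163high arrays, against 3.29, 2.60 and 3.06 on the CD163low arrays. Between 41.8% and 62.9% of the probe sets lay above that level on an array. Transcripts of both sort antigens, by their brightest probe sets, followed the gate in each pig. The brightest CD163 probe set had signals of 8.17, 7.98 and 7.61 in CD163high and of 4.97, 6.17 and 6.54 in CD163low monocytes. The dimmer CD163 probe set had signals of 5.37, 5.29 and 4.28 in CD163high and of 3.14, 4.29 and 4.34 in CD163low monocytes. It did not follow the gate in pig 3, where the difference was -0.056. CD14 had signals of 4.31, 5.53 and 5.82 in CD163high and of 6.24, 5.78 and 6.84 in CD163low monocytes. The populations overlapped for CD14 and for the dimmer CD163 probe set. The marker genes of monocytes that were measured (6 of 8 listed) all lay above background on all 6 arrays. Pig 2 stood apart in markers of red cells, whose summed linear signal was 2112 in CD163high and 1782 in CD163low monocytes, against 24.8 to 38.0 on the other 4 arrays. Without pig 2 the differences of the brightest probe sets described below were -1.10 for IL1A, -1.23 for IL1B, -1.90 for IL18 and -2.23 for IL1R2.

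The mean of every one of the 5 probe sets was lower in CD163high monocytes, and so was the value in each of the 3 pigs. The largest differences were those of the decoy receptor IL1R2 and of the brighter IL18 probe set, where the populations did not overlap. IL1B and IL1A had smaller differences, and their populations overlapped. None of the 5 passed the limma test after Benjamini-Hochberg adjustment over all 47722 probe sets, where limma called 0 (0.00%) and 1235 (2.59%) had an unadjusted p under 0.05. The array holds 12.4% of probe sets that were lower in CD163high monocytes in all 3 pigs. Populations without overlap, lower in CD163high, made up 3.37% of the array, against 3 of the 5 probe sets here. The median difference of the 4 genes, each by its brightest probe set, was -1.46, against -0.013 over all 13755 genes. By pig it was -1.17, -1.20 and -2.23 in pigs 1, 2 and 3. In bulk RNA of a sorted population, fewer cells that express a gene and less of its RNA per cell cannot be told apart.

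**Figure D1:**
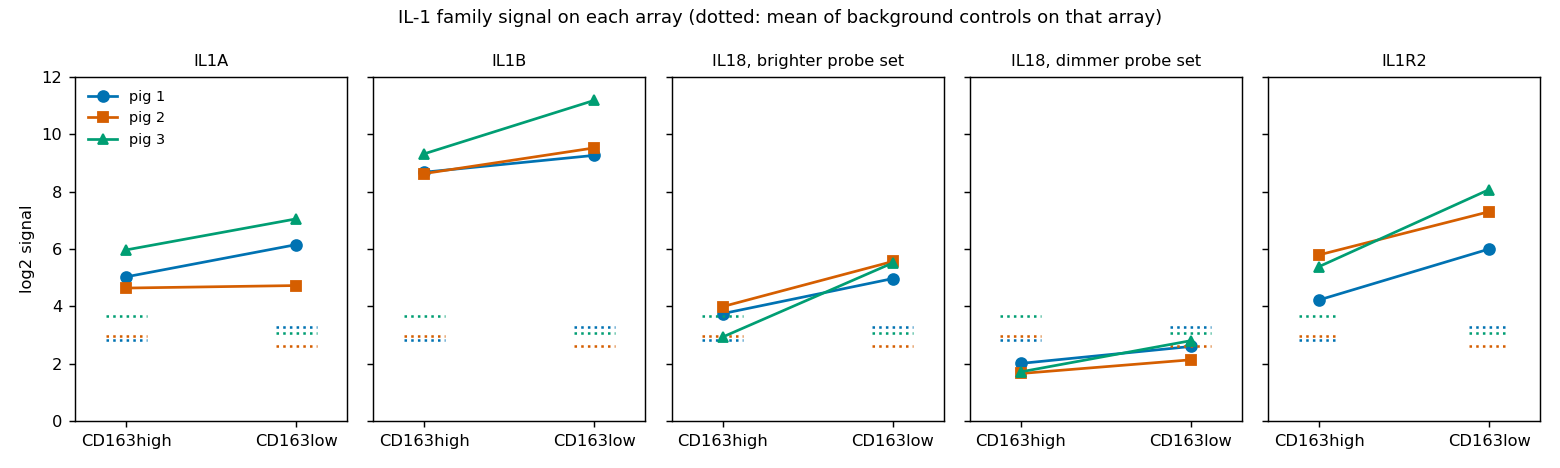
Log2 signal of the 5 probe sets in CD163high (left in each panel) and CD163low monocytes, with a line joining the 2 arrays of a pig and dotted marks at the background level of each array. Every line runs upward to CD163low, the dimmer IL18 probe set lies under the background marks, and IL1B lies furthest above them.

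The decoy receptor gene IL1R2 had signals of 4.22, 5.80 and 5.39 in CD163high and of 6.00, 7.30 and 8.08 in CD163low monocytes of pigs 1, 2 and 3. The highest CD163high value lay under the lowest CD163low value, and all 6 lay above the background of their array. The means were 5.13 ± 0.82 in CD163high and 7.13 ± 1.05 in CD163low monocytes (SD, n = 3 each). The difference was -1.99 ± 0.63 (SE), or 3.98-fold lower, with a 95% interval of -3.52 to -0.47 in limma (unadjusted p = 0.0184, adjusted p = 1). Within pigs it was -1.78, -1.51 and -2.69. Of all probe sets, 0.0545% had a difference as low or lower. With array weights the difference was -3.03, again without a call in limma (adjusted p = 0.174).

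IL1R2 is also expressed by neutrophils, and some neutrophil markers ran in the same direction. Of the 10 listed neutrophil markers 6 were measured, with a median difference of -0.095. The chemokine receptor gene CXCR2, also found on monocytes, averaged 5.35 in CD163high and 8.01 in CD163low monocytes. CSF3R, the receptor for granulocyte colony-stimulating factor, averaged 8.76 in CD163high and 9.85 in CD163low monocytes. Its difference was -1.09 ± 0.56, with -1.36, -1.09 and -0.82 within pigs, and -1.68 with the mean of its probe sets. Against -2.66 for the brightest probe set of CXCR2, the other ones had differences of -1.04 ± 0.27 and -1.27 ± 0.97, and the mean of its 3 probe sets had -1.66. The -1.27 rests on CD163low of pig 1, where the signal was 5.24. On the other arrays that probe set had 1.20 to 1.87, under their background, and it enters the mean. The granule protein gene PGLYRP1, above background on all 6 arrays, had a difference of 0.061 ± 0.53 with mixed signs, and MMP9, also above it on all 6, had -0.093 ± 0.30. MPO had -0.097 and was above background on 2 of 6 arrays, and LTF was under it on all 6. The summed linear signal of the 6 markers was 411 to 1122 in CD163high and 824 to 1954 in CD163low monocytes. Markers of B cells, dendritic cells and platelets, 4 measured of each, had median differences of -0.57, -0.40 and -0.46. Of these, 3, 2 and 2 were lower in all 3 pigs, against 12.5% of all genes, and the rest had mixed signs. The summed linear signal of the B cell markers was 118, 588 and 138 in CD163high monocytes of pigs 1, 2 and 3. In CD163low monocytes it was 212, 1057 and 387. The part of all these cell types in the IL1R2 result was not tested.

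IL18 is represented by 2 probe sets, and the populations did not overlap in either. The brighter one had signals of 3.74, 3.99 and 2.93 in CD163high and of 4.97, 5.56 and 5.51 in CD163low monocytes of pigs 1, 2 and 3. The CD163low values lay within 0.60 of each other, and the CD163high values within 1.06. The difference was -1.79 ± 0.33, with a 95% interval of -2.60 to -0.99 in limma (unadjusted p = 0.00144, adjusted p = 1). Within pigs it was -1.22, -1.57 and -2.59. The largest of these rests on the CD163high array of pig 3, where the signal lay 0.74 under the array's background, so its size is uncertain and no fold is given.

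The dimmer IL18 probe set had signals of 2.01, 1.66 and 1.71 in CD163high and of 2.60, 2.13 and 2.80 in CD163low monocytes. All 6 values lay under the background of their array. Its difference was -0.72 ± 0.23 (limma, unadjusted p = 0.0198, adjusted p = 1), and -0.59, -0.48 and -1.09 within pigs. The 2 probe sets therefore had the same order of populations, but the dimmer one gives no measure of the size.

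IL1B had signals of 8.68, 8.63 and 9.33 in CD163high and of 9.27, 9.53 and 11.19 in CD163low monocytes of pigs 1, 2 and 3. CD163high of pig 3 was just above CD163low of pig 1, so the populations overlapped, and CD163low of pig 3 stood above the other 5 arrays. The gene lay 5.66 to 5.86 above background in CD163high and 5.98 to 8.13 above it in CD163low monocytes, so its transcript was readily measured in both. The means were 8.88 ± 0.39 in CD163high and 10.00 ± 1.04 in CD163low monocytes (SD, n = 3 each). The difference was -1.12 ± 0.53, or 2.17-fold lower, with a 95% interval of -2.41 to 0.17 in limma (unadjusted p = 0.0791, adjusted p = 1).

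Within pigs the IL1B difference was -0.59, -0.90 and -1.87. Without the CD163low array of pig 3 it was -0.52, and without pig 3 it was -0.74. It was -2.17 with array weights and -1.70 without the 2 arrays of highest background, and limma made no call in either. The current RefSeq annotation of the pig lists a second gene, IL1B2, which carries IL1B as a synonym and to which no probe set was assigned by symbol. The sources used here do not say whether the IL1B probe set separates the 2 genes.

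IL1A, which lies next to IL1B on chromosome 3 in the same annotation, had the smallest difference among the brightest probe sets of the 4 genes. Its signals were 5.03, 4.64 and 5.97 in CD163high, against 6.15, 4.73 and 7.05 in CD163low monocytes of pigs 1, 2 and 3. The populations overlapped widely, since the pigs differed from each other by more than the populations did. All 6 values lay above background, by 1.67 to 2.30 in CD163high and by 2.12 to 3.99 in CD163low monocytes. The means were 5.21 ± 0.68 in CD163high and 5.98 ± 1.17 in CD163low monocytes (SD, n = 3 each). The difference was -0.77 ± 0.64, or 1.70-fold lower, with a 95% interval of -2.32 to 0.79 in limma (unadjusted p = 0.277, adjusted p = 1).

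Pig 2 had almost no IL1A difference, at -0.088, against -1.12 and -1.08 in pigs 1 and 3. The mean difference was accordingly -1.39 without the CD163low array of pig 2 and -0.48 without its CD163high array. It was -0.23 without the CD163low array of pig 3, and -1.79 with array weights. None of these was called in limma.

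**Figure D2:**
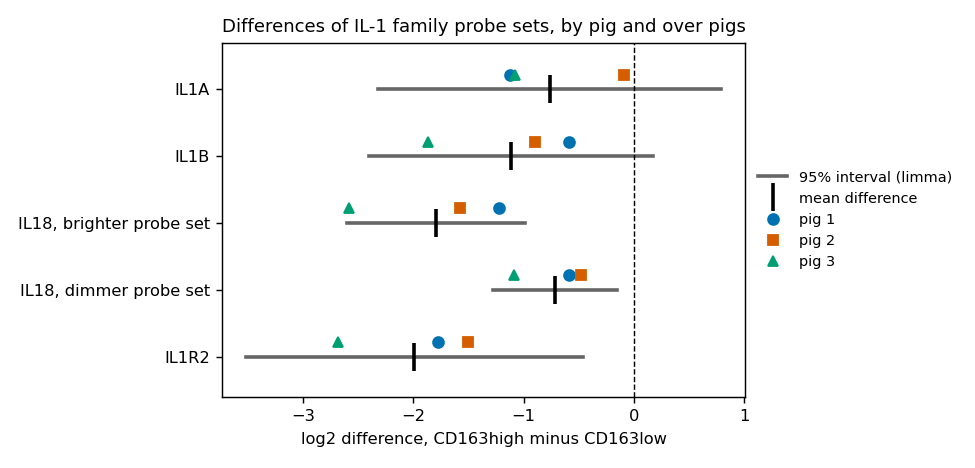
Log2 difference, CD163high minus CD163low, of the 5 probe sets, with the value of each pig as a symbol, the mean as a vertical tick and the limma 95% interval as a bar. All 15 values of single pigs lie under 0, while the intervals of IL1A and IL1B include 0. The intervals are from the fit without a block for the pig, so the spread between pigs widens them. With the pig as a fixed block the SE was 0.28 for IL1A and 0.31 for IL1B.

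Set side by side within each pig, the decoy receptor had a larger difference than the IL-1 agonists. The IL1B difference exceeded the IL1R2 difference by 1.19, 0.61 and 0.82 in pigs 1, 2 and 3, a mean of 0.87. For IL1A the excess was 0.65, 1.42 and 1.60, a mean of 1.23. Relative to IL1R2, both agonists were thus higher in CD163high monocytes in 3 of 3 pigs, although each was lower in itself. For IL18 the excess over IL1R2 was 0.56, -0.068 and 0.10, with no common sign over the pigs. IL1B against IL1A had no common order, with 0.54, -0.81 and -0.78. These contrasts are given as a description, with no test, because the genes were chosen with earlier results of these data known. Probe sets can also differ in how far a change in RNA moves their signal.

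**Figure D3:**
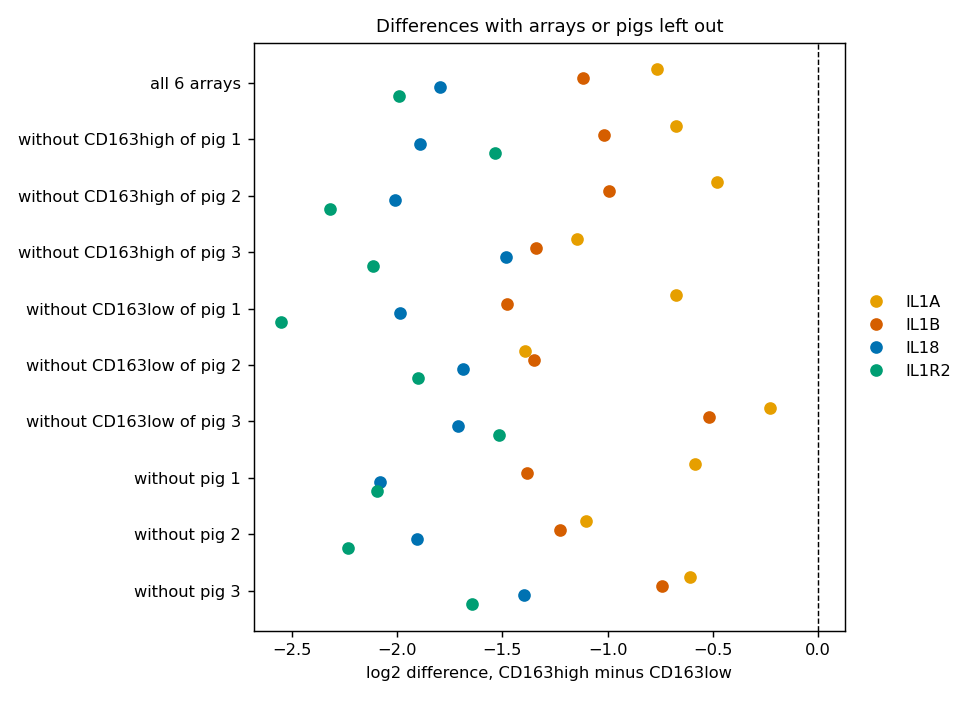
Log2 difference, CD163high minus CD163low, of the brightest probe set of IL1A, IL1B, IL18 and IL1R2 with all 6 arrays and after leaving out each array or each pig. All points lie under 0, which for a pig left out follows from the negative difference in each pig. IL1R2 ran from -2.55 to -1.52, IL18 from -2.08 to -1.40, IL1B from -1.48 to -0.52 and IL1A from -1.39 to -0.23.

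The signalling receptor of the pathway had the opposite direction to the decoy. The brighter IL1R1 probe set had signals of 5.42, 4.46 and 4.85 in CD163high and of 3.64, 3.63 and 4.07 in CD163low monocytes of pigs 1, 2 and 3. The populations did not overlap, and the signal was above background on all 6 arrays. It was above the 95th percentile of the background controls on 1 array. CD163low of pig 1, at 3.64, lay close to its array's background of 3.29. The difference was 1.13 ± 0.29 (limma, unadjusted p = 0.00732, adjusted p = 1), and 1.78, 0.83 and 0.78 within pigs. The largest of these rests on that array, so its size is uncertain and no fold is given. The other IL1R1 probe set had a difference of 0.58 ± 0.26, with 0.87, 0.67 and 0.20 within pigs. Its signal in CD163low of pig 1, at 3.01, lay under that background. Populations without overlap, higher in CD163high, made up 2.92% of the array. Without pig 1 the difference of the brighter probe set was 0.81.

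Among the 7 receptors and co-receptors, all measured, limma called 0, and 1 in each direction had an unadjusted p under 0.05. Of all 13755 genes by their brightest probe sets, 1.43% had such a p and were lower in CD163high, and 1.84% had one and were higher. IL18RAP, the accessory chain of the IL-18 receptor, was the lower one. Its signals were 2.71, 2.63 and 2.60 in CD163high, against 3.32, 3.36 and 3.63 in CD163low monocytes. All 3 CD163high values lay under the background of their array, and all 3 CD163low values above it. The difference was -0.79 ± 0.17 (limma, unadjusted p = 0.00286, adjusted p = 1). IL18RAP is known from T cells and NK cells as well. The summed linear signal of the 5 NK cell markers was 417, 1101 and 404 in CD163high, against 545, 1174 and 922 in CD163low monocytes of pigs 1, 2 and 3, and so lower in CD163high in each pig. Their median difference was -0.14. Of the 5, GNLY and KLRB1 were lower in CD163high in all 3 pigs, and 3 had mixed signs. Of all genes, 12.5% were lower in all pigs and 77.1% had mixed signs. GNLY had differences of -0.48, -0.21 and -2.20 within pigs, and KLRB1 was above background on 1 of 6 arrays. The 6 T cell markers had a median difference of -0.67, with -1.03 ± 1.28 for CD3D, -0.69 ± 1.01 for CD3E and -0.94 ± 1.41 for CD3G. Their summed linear signal was 800, 2115 and 509 in CD163high, against 532, 2490 and 1220 in CD163low monocytes of those pigs. This sum was higher in CD163high in pig 1 and lower in pigs 2 and 3. Its direction in pig 1 was that of CD2, the marker of highest signal, which had 1.19. In that pig CD3D, CD3E, CD3G, CD4 and CD8A had -1.38, -0.89, -0.11, -0.66 and -0.87. The part of both cell types in the IL18RAP result was not tested.

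**Figure D4:**
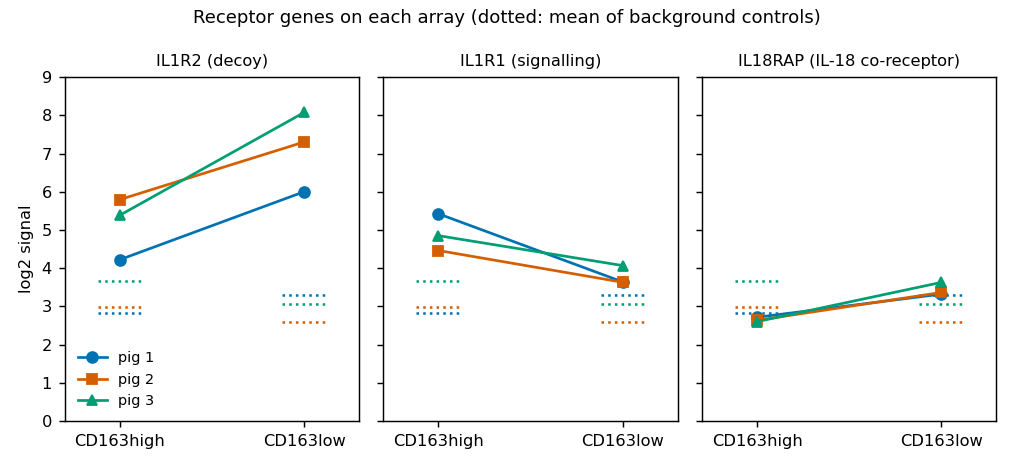
Log2 signal of the decoy receptor gene IL1R2, the signalling receptor gene IL1R1 (brighter probe set) and the IL-18 co-receptor gene IL18RAP in CD163high (left) and CD163low monocytes, with a line for each pig and dotted marks at the mean of the array's background controls. IL1R1 runs downward to CD163low in all 3 pigs, whereas IL1R2 and IL18RAP run upward.

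The list of other pathway genes held 57, of which 41 were measured, and limma called 0 of them. Mixed signs between the pigs were found for 32 of the 41, or 78.0%, against 77.1% of all 13755 genes by their brightest probe sets. An unadjusted p under 0.05 was found for 3 lower genes and 1 higher gene, or 7.32% and 2.44% of the 41. The shares of all 13755 genes with such a p were 1.43% lower and 1.84% higher. The median difference of the 41 was -0.16. In all 3 pigs alike, 8 had lower and 1 had higher signals in CD163high monocytes, and on the whole array 12.4% of probe sets were lower and 9.99% higher in this way.

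Of the genes of processing and release 4 of 10 were measured, and those not measured include the caspase gene CASP1, so cleavage of the precursors is not covered here. CAPN1, a subunit of the calpain that processes IL-1α, had a difference of -0.42 ± 0.30, which was -0.14 without CD163low of pig 1 and -0.68 without CD163low of pig 2. Without the 2 arrays of highest background it was -0.12. GSDMD, which encodes the pore-forming gasdermin D, had 0.19 ± 0.25. The inflammasome sensor gene NLRP3 had -0.17 ± 0.37. Among the 13 measured adaptors and kinases none had the same direction in all pigs, where 77.1% of all genes had mixed signs. The smallest p belonged to IKBKB, an NF-κB-activating kinase (-0.48 ± 0.29), and IRAK2, a receptor-associated kinase (-0.79 ± 0.86). Both sizes depended on the arrays kept: IKBKB had -0.19 without CD163high of pig 3 and -0.11 without pig 3, and IRAK2 had -0.14 without CD163low of pig 3 and -1.56 without CD163low of pig 2. The adaptor gene MYD88 had -0.092 ± 0.30. IL33, the 1 other ligand of the family that was measured, lay under background on all 6 arrays.

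Of 8 measured genes of NF-κB and its inhibitors, 2 were lower in all 3 pigs and 6 had mixed signs, against 12.5% and 77.1% of all genes. NFKBIZ, an inducible member of the IκB family, had signals of 7.44, 7.01 and 7.42 in CD163high and of 7.58, 7.38 and 9.34 in CD163low monocytes. CD163low of pig 3 stood above the others, as it did for IL1B, and without it the difference of -0.81 ± 0.53 was -0.19. NFKB2, a subunit of NF-κB, had -0.52 ± 0.54, with 0.58 in pig 2, and ran from -1.11 without CD163low of pig 2 to -0.014 without pig 1. It was -0.22 without CD163low of pig 3.

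Genes known to respond to IL-1 were measured for 8 of 9 listed, and 2 had an unadjusted p under 0.05, both lower, against 1.36% of the probe sets of the array. They were CXCL8, listed as IL8, a neutrophil chemoattractant, and PTGS2, the inducible cyclooxygenase. CXCL8 had signals of 5.38, 4.73 and 5.21 in CD163high, against 8.96, 7.25 and 9.17 in CD163low monocytes, a difference of -3.36. Its other, dimmer probe set had -0.27 ± 0.15, and the mean of both -1.82. That probe set lay under background on every array but CD163low of pig 2 (2.80 against 2.60), so it gives no measure of the size. PTGS2 had signals of 5.86, 5.67 and 5.59 in CD163high and of 7.94, 7.15 and 6.79 in CD163low monocytes. Both were without overlap, as were 3.16% of all genes in this direction, and neither passed in limma over all probe sets (adjusted p = 1 for each). The other 6 had mixed signs between the pigs, and 4 of the 8, IL6, CSF3, CCL2 and CCL20, were not above background on all 6 arrays.

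**Figure D5:**
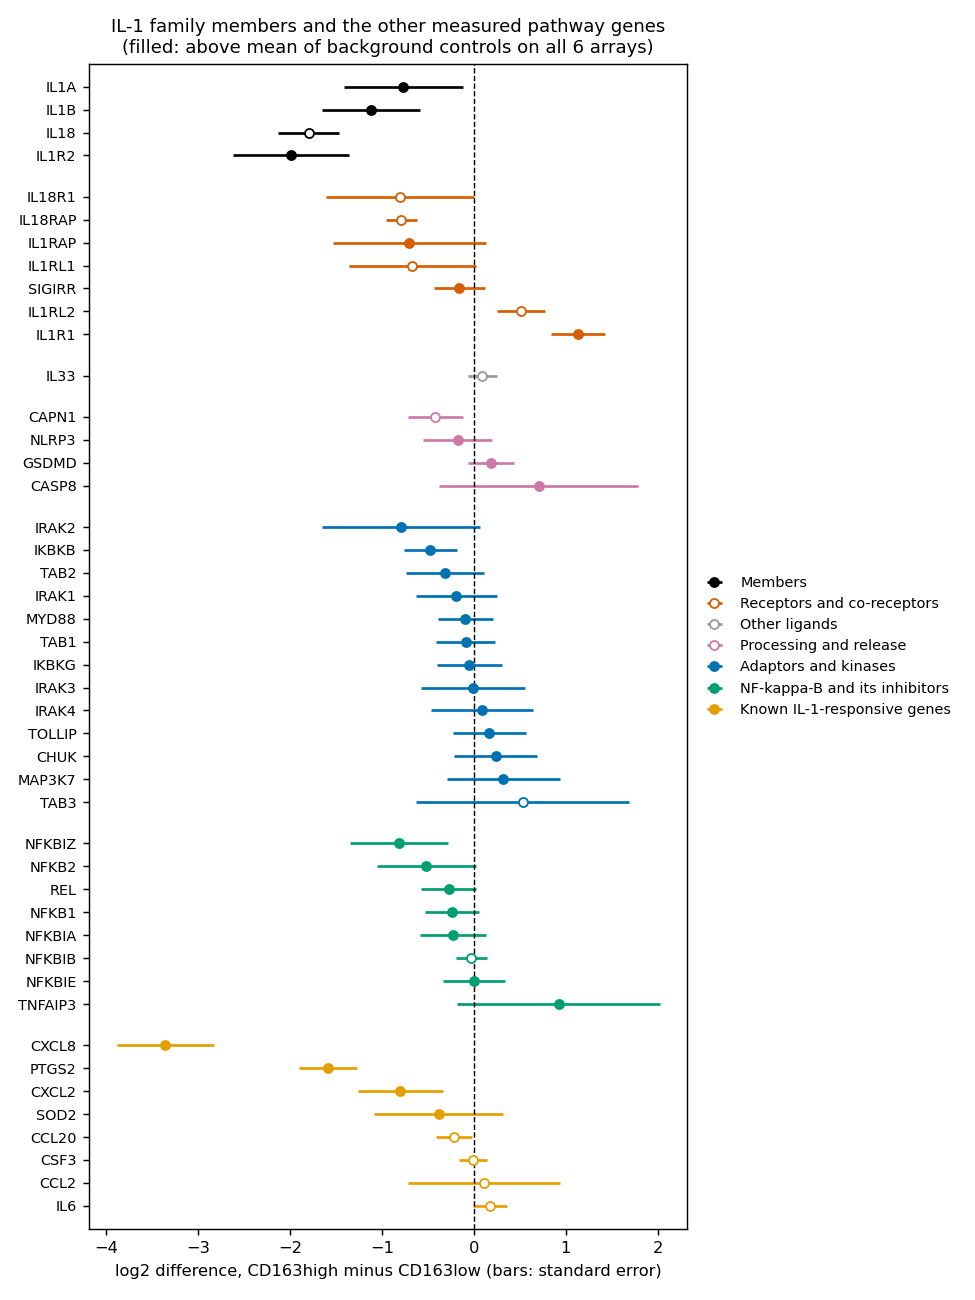
Log2 difference, CD163high minus CD163low, with its standard error for the 4 members (brightest probe set) and the 41 measured pathway genes by role; open symbols mark genes not above background on all 6 arrays. The members lie between -1.99 and -0.77, IL1R1 lies at 1.13 and CXCL8 at -3.36, and the 13 adaptors and kinases lie between -0.79 and 0.53.

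The genes whose signal followed each member most closely over the 6 arrays were found among 8205 genes above background on all arrays. Such likeness over 6 points is a description, and pigs, arrays and populations all enter it. For IL1R2 they were GPR84, a receptor for medium-chain fatty acids (Pearson r = 0.992), the cell cycle kinase gene CDK6 (0.986) and BRI3BP (0.986). GPR84 had signals of 3.55, 4.58 and 4.58 in CD163high and of 4.66, 5.69 and 6.10 in CD163low monocytes. For IL18 they were VSIG4, a complement receptor gene (0.975), EPC2 (0.973) and STEAP4, a metalloreductase gene (0.972). For IL1B they were PTAFR, the receptor for platelet-activating factor (0.983), ZNF592 (0.983) and RIN2 (0.982). PTAFR had signals of 8.71, 9.05 and 9.67 in CD163high and of 9.39, 9.59 and 11.12 in CD163low monocytes, with the same high array as IL1B. For IL1A they were CCIN (0.999), TRAM2 (0.989) and RBP4 (0.989). The likeness was least selective for IL1A, where 274 genes had r over 0.9, against 68 for IL1B, 66 for IL1R2 and 37 for IL18.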

How the data were processed

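The file deposited by the authors gives 1 intensity per probe set on each of 6 arrays. The submitters' processing notes list RMA and limma, with no version or role. Probe-set definition and genome build are not given in the sources, and coordinates are therefore left out. The first 186 rows hold log2 values. The other 47659 are antilogs, since their log2 values fall on steps of 0.0001 (tolerance 0.000001), and log2 was taken of these rows only. RMA equalises arrays and compresses differences of dim probe sets. The 123 array controls were left out. The number of arrays limits the precision.

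The test was limma (version 3.58.1, R 4.3.3) without a block, two-sided, adjusted over 47722 probe sets, threshold 0.05. A run on simulated data, with no correlation between the arrays of a pig, checked that known differences were recovered on average. Per the labels, the 2 arrays of a number come from 1 animal. Their deviations from group means correlated at -0.20, 0.67 and 0.26 in pigs 1, 2 and 3. Across numbers, CD163high of pig 3 correlated at 0.60 with CD163low of pig 1, and CD163high of pig 1 at 0.24 with CD163low of pig 2. Among the CD163high arrays, only that of pig 2 was closest to the array of its own number. Among the CD163low arrays, those of pigs 2 and 3 were. The values within pigs therefore rest on the labels. A gene was represented by its brightest probe set.

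Members, gene lists and tests were chosen with earlier results of these data known. Named are all members, CD14, CD163, up to 2 genes of smallest p per role and the 3 genes of closest pattern per member. NLRP3, MYD88, IL6, CSF3, CCL2, CCL20, IL1RAP, TNFAIP3, CASP8, TAB3, CXCR2, CSF3R, MPO, LTF, PGLYRP1, MMP9, CD2, CD3D, CD3E, CD3G, CD4, CD8A, GNLY and KLRB1 were named after their values were seen. Alternatives were the pig as a block, other variance models, weights, filters, normalizations, background as a covariate, and omission of arrays or pigs.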

Additional observations from a re-analysis of the deposited data

How the results depend on the processing

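The 4 members kept a negative difference under all 20 alternatives each, and limma called none of them under any. Part of the common sign was fixed in advance. The pig blocks, the trended variance and the filters do not change a difference, nor does the mean of probe sets where a gene has 1. Leaving out a whole pig keeps a sign that all 3 pigs share. The pig as a fixed replicate block left the differences as they were and gave unadjusted p in limma of 0.0463 for IL1A, 0.0176 for IL1B, 0.00336 for IL18 and 0.00149 for IL1R2, with an adjusted p of 1 for each. It changed no call. The number of called probe sets was 0 under all alternatives and at an adjusted p of 0.10, and 1235 at an unadjusted p of 0.05; that count was 1917 with the fixed block and 8884 with array weights. Of the 5 probe sets 3 lay above the mean of the background controls on all 6 arrays and 1, IL1B, above their 95th percentile, so signal over background limits IL1A, IL18 and IL1R2 most. IL18 had -1.26 with the mean of its 2 probe sets. Among the other named genes tried under the alternatives, 5 with differences smaller than their SE changed sign. GSDMD did so with array weights (-0.14), and MYD88 with the mean of its probe sets (0.13) and without the 2 arrays of highest background (0.15). With an array or pig left out, GSDMD ran from -0.020 to 0.34, IL1RAP from -1.68 to 0.67, NLRP3 from -0.64 to 0.32, MYD88 from -0.42 to 0.13 and MPO from -0.40 to 0.10. The cause was not tested.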

Other observations

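IL1RAP encodes the co-receptor that IL1R1 needs for signalling and that IL1R2 can also bind. By its brightest probe set it differed in direction between the pigs. Its brightest probe set had signals of 6.79, 6.66 and 5.02 in CD163high and of 5.54, 6.58 and 8.45 in CD163low monocytes of pigs 1, 2 and 3. The differences were 1.25, 0.080 and -3.43. Of its 5 probe sets, all had a negative mean difference, from -0.998 to -0.053. Not all had mixed signs. Within pigs 1, 2 and 3 the brighter of the other ones had -0.50, -0.70 and -1.79, and 1.39, -1.03 and -2.63. The dimmer ones had -0.45, -0.21 and -0.82, and 0.22, -0.048 and -0.33. The NF-κB inhibitor gene TNFAIP3 had differences of 3.42, 0.10 and -0.76 in pigs 1, 2 and 3, the kinase-binding protein gene TAB3 had 3.22, -0.25 and -1.38, and the caspase gene CASP8 had 2.83, 0.15 and -0.87. These 4 genes were picked for their spread between pigs.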
